A study of Mus musculus with 10 samples.

Results

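Integrins are the receptors through which a cell holds its extracellular matrix, and the mRNAs of 10 of their subunits are described here: Itga5, Itgav, Itgb3, Itgb5, Itgb6, Itga3, Itga6, Itgb4, Itga2 and Itgb1. They were taken as the rows of the deposited count table whose Entrez gene identifier belongs to these mouse symbols, and they make up 10 of the 24454 genes in that table. All 10 passed the filter on low counts, which left 13135 genes for testing.

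An integrin is a pair of an alpha and a beta chain, and the pair sets the ligand. Subunits of receptors for fibronectin, vitronectin and other ligands with an Arg-Gly-Asp (RGD) motif are common in migrating and mesenchymal cells, and receptors for laminin hold epithelial cells on their basement membrane. In mammary epithelium the shift from the epithelial to the mesenchymal state that the cytokine TGFbeta brings about (epithelial-mesenchymal transition, EMT) is a known setting for changes in integrins, and some integrins that bind RGD can in turn release TGFbeta from its latent form.

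The cells were NMuMG/E9, subclone 9 of NMuMG, an epithelial line from normal mouse mammary gland, so that all libraries come from 1 clone. Every group was transfected with an siRNA at 20 nM and collected on day 3, and the design crossed the siRNA with recombinant human TGFbeta1: siCtr is a control siRNA, and siIrf1 targets Irf1, which encodes a transcription factor of the interferon response. The groups were siCtr without TGFbeta (siCtr 0 d, replicates 1 and 3), siIrf1 without TGFbeta (siIrf1 0 d, replicates 1, 2 and 3), siCtr with TGFbeta at 2 ng/ml for the last 2 d (siCtr TGFbeta, replicates 2 and 3) and siIrf1 with the same TGFbeta (siIrf1 TGFbeta, replicates 1, 2 and 3). Whether replicates were separate cultures is not in the labels, so p-values here reflect the spread among these samples alone, and that spread may be technical. Levels of a gene across libraries are given as CPM (counts per fixed total, with library sizes adjusted by edgeR's TMM) and compared between genes as RPKM (CPM per kilobase of the gene length in the deposited table). A change is given as the log2 fold change ± SE of edgeR's quasi-likelihood test, with Benjamini-Hochberg adjusted p over the 13135 genes, and "rose" and "fell" mean an adjusted p under 0.05.

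Libraries held 27547649 to 67301646 counts, and Irf1 read 36.5 to 64.1 CPM in the siIrf1 libraries against 106 to 148 CPM in the siCtr libraries. The epithelial markers Cdh1, Krt8, Krt18 and Krt19 were present (summed level of the 7 markers 6620 to 13631 CPM), while Epcam, Cldn3 and Cldn7, which also define epithelium, were under 1 CPM in all 10 libraries. The 7 fibroblast and pericyte markers summed to 0.152 to 0.879 CPM at 0 d and to 15.4 to 22.8 CPM with TGFbeta, nearly all of it Pdgfrb, with Lum and Thy1 at 0 in every library. The 6 endothelial markers summed to at most 0.158 CPM at 0 d, to 5.16 and 5.92 CPM in siCtr TGFbeta and to 1.52 to 1.86 CPM in siIrf1 TGFbeta, nearly all of it Cdh5, with Tie1 and Cldn5 at 0 in every library. The 9 leukocyte and platelet markers summed to 28.3 to 60.5 CPM, with Adgre1 and Cd3e at 0 throughout. Among these the macrophage marker Cd68 read 1.29 to 2.36 CPM at 0 d. With TGFbeta it read 6.10 and 6.49 CPM in siCtr and 1.69 to 2.72 CPM in siIrf1. Cd68 was thus highest in the same group as Itga5 and Itgb3, as was Itgb2. Most of the sum was Csf1r, which was higher in siIrf1 than in siCtr cells instead. Csf1r read at most 34.3 CPM in siCtr 0 d and 37.5 to 43.7 CPM in siIrf1 0 d. With TGFbeta it read 31.7 and 34.6 CPM in siCtr and 39.3 to 56.1 CPM in siIrf1. Ptprc was highest in siIrf1 0 d (0.659 to 1.02 CPM). The 7 basal and myoepithelial markers summed to 145 and 150.1 CPM in siCtr 0 d and 68.7 to 89.7 CPM in siIrf1 0 d. With TGFbeta they summed to 66.5 and 68.4 CPM in siCtr and 110 to 141 CPM in siIrf1. Most of this was Mylk, at 129 and 136, 55.6 to 76.1, 53.4 and 53.9, and 85.8 to 128 CPM in the same order. Krt5 read 11.2 to 16.0 CPM at 0 d, 1.03 and 1.56 CPM in siCtr TGFbeta and 2.29 to 5.44 CPM in siIrf1 TGFbeta. Acta2 read 0.236 to 0.485 CPM at 0 d and 8.50 to 18.6 CPM with TGFbeta. Krt14, Krt17, Trp63 and Oxtr were at most 2.01 CPM. The epithelial keratin Krt19 read 1870 to 2496 CPM at 0 d, 282 and 332 CPM in siCtr TGFbeta and 568 to 1397 CPM in siIrf1 TGFbeta. Cdh1 was also lowest in siCtr TGFbeta (339 and 363 CPM, against 577 to 722 CPM in the other groups). The keratins Krt18 and Krt8 were highest there instead. Krt18 read 7432 and 7667 CPM, against 3486 to 4314 CPM at 0 d and 3191 to 4771 CPM in siIrf1 TGFbeta. Krt8 read 4669 and 5293 CPM, against 2012 to 3162 CPM at 0 d and 2138 to 4657 CPM in siIrf1 TGFbeta. The part of these markers in the results was not tested. Genes of low GC content (the lowest quartile against the highest) stood 1.37 and 0.61 log2 units lower in the siCtr 0 d libraries, and 0.46 lower in both siCtr TGFbeta libraries. They stood 0.19 to 0.93 higher in siIrf1 0 d and 0.66 and 0.77 higher in replicates 1 and 3 of siIrf1 TGFbeta. SiIrf1 TGFbeta replicate 2 stood apart from its group in this measure (-0.39) and correlated least with the others (0.980 and 0.971, against 0.989 between those), and siCtr 0 d replicate 1 was the lowest of all. For the subunits these affect most, values are also given without such a library or with the GC and length trend of each library removed.

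With TGFbeta in siCtr cells, 8 of the 10 subunits rose and 1, Itga3, fell, where 32.5% of all genes tested passed in either direction, 16.1% higher and 16.3% lower. All 5 fibronectin and vitronectin receptor subunits rose, with a median log2 change of 2.00, while of the 3 laminin receptor subunits 1 rose, 1 fell and 1 did not pass, with a median of 0.08. The median over all genes tested was 0.02. In siIrf1 cells 6 of the 10 rose with TGFbeta and none fell, where 21.3% of genes passed in either direction (11.6% higher, 9.71% lower). Of the fibronectin and vitronectin receptor subunits 4 of 5 rose there (median 1.98), and of the laminin receptor subunits 1 of 3 (median 0.58), beside a median of 0.02 over all genes. In these bulk samples fewer cells with an mRNA and less of it per cell cannot be told apart.

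**Figure D1:**
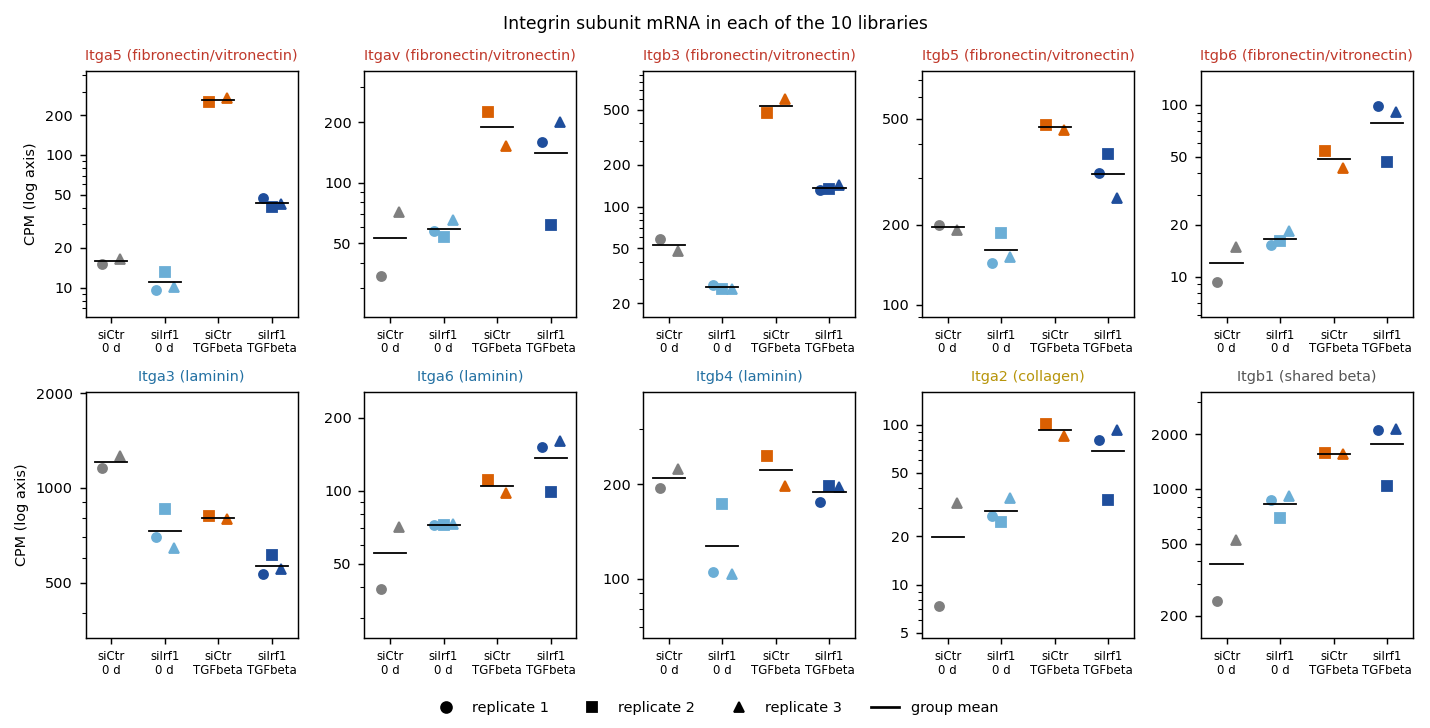
Level of each integrin subunit in the 10 libraries (CPM, log axis) by group, with a marker shape per replicate number and a bar at the group mean. Itga5 and Itgb3 stand highest in the 2 siCtr TGFbeta libraries, Itga3 is highest at siCtr 0 d, and siIrf1 TGFbeta replicate 2 lies below its group in Itgav, Itga2, Itgb6 and Itgb1.

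Itga5, the alpha chain that pairs with Itgb1 as the main fibronectin receptor, lies on chromosome 15 from 103344286 to 103366791 (GRCm38.p6, minus strand). It read 15.1 and 16.4 CPM in siCtr 0 d, 250.2 and 270.3 CPM in siCtr TGFbeta, 9.61, 13.2 and 10.2 CPM in siIrf1 0 d, and 47.3, 40.3 and 42.5 CPM in siIrf1 TGFbeta. The 4 groups did not overlap, and the siIrf1 libraries with TGFbeta stood between the siCtr libraries without and with it. Itga5 rose by 4.05 ± 0.21 in siCtr cells (16.5-fold, adjusted p = 2.27e-06) and by 1.98 ± 0.16 in siIrf1 cells (3.93-fold, adjusted p = 1.85e-05). Among the 13135 genes tested its rise was number 286 from the top in siCtr cells and number 485 in siIrf1 cells.

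Promoters of the fibronectin and vitronectin receptor subunits that rose with TGFbeta under both siRNAs, where a window was found, are shown to let their sequence be compared. RefSeq (GRCm38.p6) held promoter windows for 7 of the 10 subunits, and those of Itga5 (chr15:103366792-103367041, minus strand), Itgb5 (chr16:33829415-33829664, plus strand) and Itgb6 (chr2:60722604-60722853, minus strand) give the 250 bases before the start of transcription, 5′ to 3′. Capitals mark matches, on either strand, to the motif letters searched:
Itga5: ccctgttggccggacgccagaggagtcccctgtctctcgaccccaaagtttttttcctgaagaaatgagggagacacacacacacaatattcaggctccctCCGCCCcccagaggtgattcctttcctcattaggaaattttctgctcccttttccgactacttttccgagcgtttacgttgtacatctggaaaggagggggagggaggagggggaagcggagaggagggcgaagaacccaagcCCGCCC
Itgb5: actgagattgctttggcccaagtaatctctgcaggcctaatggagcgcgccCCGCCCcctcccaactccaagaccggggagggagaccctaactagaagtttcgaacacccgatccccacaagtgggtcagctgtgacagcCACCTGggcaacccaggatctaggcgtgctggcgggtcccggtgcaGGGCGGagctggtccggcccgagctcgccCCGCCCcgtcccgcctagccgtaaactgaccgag
Itgb6: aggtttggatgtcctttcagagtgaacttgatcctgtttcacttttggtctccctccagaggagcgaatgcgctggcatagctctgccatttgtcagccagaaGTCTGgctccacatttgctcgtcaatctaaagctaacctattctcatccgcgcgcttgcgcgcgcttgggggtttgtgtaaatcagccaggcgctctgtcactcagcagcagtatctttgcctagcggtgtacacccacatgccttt
The letters searched were an AP-1 site (TGANTCA, in 6.75% of 32851 mouse promoter windows of this length), a Smad element (CAGAC, 42.2%), an IRF element (GAAA and GAAA with 2 bases between, 2.98%), an E-box (CACCTG, 17.2%) and a GC box (GGGCGG, 32.7%). The Itga5 window held GC boxes that begin 149 and 6 bases before the start, and no match to the other 4 motifs. The Itgb5 window held 3 GC boxes and an E-box that begins 109 bases before the start. The Itgb6 window held a single Smad element, 147 bases before the start, and a second Itgb6 window, at a RefSeq start inside the gene and not shown, held an E-box 60 bases before its start. No AP-1 match was found in any of the 9 windows of the 7 subunits, and an IRF match only in an Itga3 window, 100 bases before a RefSeq start that lies inside the annotated gene. Smad matches numbered 3 each in the windows of Itga2 and Itgb1. The Itgav window, at a RefSeq start that also lies inside the annotated gene, held none of the 5 motifs. These are matches of letters, and no binding was measured.

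Itgb3, a vitronectin receptor chain that pairs with Itgav, and in platelets with Itga2b, lies on chromosome 11 from 104608000 to 104670476. Its level was 57.9 and 48.0 CPM in siCtr 0 d, 470.9 and 599.9 CPM in siCtr TGFbeta, 27.3, 25.4 and 25.5 CPM in siIrf1 0 d, and 132, 133 and 142 CPM in siIrf1 TGFbeta. As with Itga5, no groups overlapped and siCtr TGFbeta stood highest. The rise was 3.34 ± 0.18 in siCtr cells (10.1-fold, adjusted p = 2.48e-06) and 2.38 ± 0.14 in siIrf1 cells (5.19-fold, adjusted p = 3.38e-06). Itga2b and the platelet marker Gp9 were under 1 CPM in all libraries.

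Itgav, the alpha chain shared by the vitronectin receptors (chromosome 2, 83722303 to 83806917), varied more between replicates. It read 34.4 and 71.4 CPM in siCtr 0 d, 226 and 153 CPM in siCtr TGFbeta, 57.8, 53.7 and 65.1 CPM in siIrf1 0 d, and 159, 61.6 and 199.7 CPM in siIrf1 TGFbeta. The siCtr groups did not overlap, whereas siIrf1 TGFbeta replicate 2 fell inside the range of siIrf1 0 d. Itgav rose in siCtr cells (1.84 ± 0.50, adjusted p = 0.0189), a call lost without siCtr 0 d replicate 1 (1.45) or without siCtr TGFbeta replicate 2 (1.61). With the GC and length trend removed it was 1.09 and called. In siIrf1 cells the change was 1.25 ± 0.40 and did not pass (adjusted p = 0.0527). It was called without siIrf1 TGFbeta replicate 2 (1.61) and with the GC and length trend removed (0.96). Of the exon bases of Itgav 5.90% overlap a gene on the opposite strand, Gm13684, and the strand setting of the counting is not given in the sources used here.

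Itgb5, the beta chain of another vitronectin receptor with Itgav (chromosome 16, 33829665 to 33949338), started from a higher level and moved less. Its level was 199.5 and 191 CPM in siCtr 0 d, 473 and 454 CPM in siCtr TGFbeta, 144, 186 and 151 CPM in siIrf1 0 d, and 312, 367 and 253 CPM in siIrf1 TGFbeta. Every library with TGFbeta was above every library without it. Itgb5 rose by 1.24 ± 0.20 in siCtr cells (2.37-fold, adjusted p = 9.85e-04) and by 0.96 ± 0.16 in siIrf1 cells (1.94-fold, adjusted p = 0.00190).

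Itgb6, an epithelial partner of Itgav that binds and activates latent TGFbeta (chromosome 2, 60598292 to 60722603), had the lowest level of its class per kilobase in both siCtr groups, and Itga5 in both siIrf1 groups. It read 9.31 and 14.8 CPM in siCtr 0 d, 53.7 and 42.6 CPM in siCtr TGFbeta, 15.4, 16.1 and 18.4 CPM in siIrf1 0 d, and 98.9, 46.2 and 90.3 CPM in siIrf1 TGFbeta. All libraries with TGFbeta exceeded all those without it, and siIrf1 TGFbeta replicate 2 sat between the siCtr TGFbeta libraries. The rise was 2.00 ± 0.36 in siCtr cells (adjusted p = 0.00227) and 2.24 ± 0.30 in siIrf1 cells (adjusted p = 4.43e-04). With the GC and length trend removed the rise in siCtr cells was 1.37 and still called. The rises of Itga5, Itgb3, Itgb5 and Itgb6 under both siRNAs passed in all 19 alternative analyses of each comparison.

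Among the laminin receptor subunits, Itga3, which pairs with Itgb1 and binds the laminins of epithelial basement membrane (chromosome 11, 95044475 to 95076844), was the only one of the 10 that fell with TGFbeta in siCtr cells. Its level was 1155 and 1262 CPM in siCtr 0 d, 813 and 796 CPM in siCtr TGFbeta, 698, 854 and 642 CPM in siIrf1 0 d, and 533, 611 and 551 CPM in siIrf1 TGFbeta. The siCtr 0 d libraries were above all others, and neither TGFbeta group overlapped the untreated group of its siRNA. The log2 change was -0.59 ± 0.17 in siCtr cells (adjusted p = 0.0230). This call was lost in 6 of the 19 alternatives: without siCtr 0 d replicate 1 (-0.61) or 3 (-0.40), without siCtr TGFbeta replicate 2 (-0.52) or 3 (-0.50), and under both other filters on low counts. In siIrf1 cells the change of -0.37 ± 0.14 did not pass (adjusted p = 0.0849), but it was -0.80 and called once the GC and length trend was removed.

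Itga6, the alpha chain of both the Itgb1 and the Itgb4 laminin receptors (chromosome 2, 71786886 to 71858427), went the other way. It read 39.5 and 71.2 CPM in siCtr 0 d, 111 and 98.3 CPM in siCtr TGFbeta, 72.3, 72.1 and 73.1 CPM in siIrf1 0 d, and 151, 98.5 and 159.9 CPM in siIrf1 TGFbeta. All libraries with TGFbeta were above all those without. The rise was 0.92 ± 0.29 in siCtr cells (adjusted p = 0.0356) and 0.91 ± 0.24 in siIrf1 cells (adjusted p = 0.0202). The first call was lost in 8 of 19 alternatives. Among these were the fits without siCtr 0 d replicate 1 (0.60), without siCtr TGFbeta replicate 2 (0.90) or 3 (1.07) and without any 1 of the siIrf1 0 d libraries (0.92 each). The second call was lost in 5, without any 1 of the siIrf1 0 d libraries (0.91, 0.91 and 0.92) or without siIrf1 TGFbeta replicate 1 (0.83) or 3 (0.78).

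Itgb4, which pairs only with Itga6 and anchors hemidesmosomes to keratin filaments (chromosome 11, 115974725 to 116008412), did not pass with TGFbeta under either siRNA. Its level was 195 and 224 CPM in siCtr 0 d, 247 and 198 CPM in siCtr TGFbeta, 105, 174 and 103 CPM in siIrf1 0 d, and 176, 198 and 196 CPM in siIrf1 TGFbeta. The siCtr groups overlapped, and the siIrf1 groups were adjacent without overlap. The change was 0.08 ± 0.25 in siCtr cells (adjusted p = 0.821), turning to -0.41, still not called, with the GC and length trend removed, and 0.58 ± 0.21 in siIrf1 cells (adjusted p = 0.0773). The latter was called with DESeq2 (0.60), with a block on the replicate number (0.62) and without siIrf1 0 d replicate 2 (0.87). It was not called without siIrf1 0 d replicate 1 or 3 (0.45 each), nor with the GC and length trend removed, which left 0.11 without and with the block. Of its exon bases 7.66% overlap B230344G16Rik on the opposite strand.

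Itga2, the alpha chain of a collagen receptor (chromosome 13, 114833081 to 114932100), read 7.38 and 32.3 CPM in siCtr 0 d, 101 and 85.0 CPM in siCtr TGFbeta, 26.8, 24.5 and 34.8 CPM in siIrf1 0 d, and 80.1, 33.8 and 92.6 CPM in siIrf1 TGFbeta. The siCtr 0 d libraries differed by more from each other than replicate 3 did from any siIrf1 0 d library. Itga2 rose in siCtr cells (2.22 ± 0.62, adjusted p = 0.0217), and without siCtr 0 d replicate 1 the change was 1.56 and not called, while without replicate 3 it was 3.77. It was also not called without siCtr TGFbeta replicate 2 (2.16). In siIrf1 cells it was 1.26 ± 0.49 (adjusted p = 0.105), and 1.59 and called without siIrf1 TGFbeta replicate 2. It was also called with the GC and length trend removed (1.12).

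Itgb1, the beta chain shared by Itga2, Itga3, Itga5 and Itga6 and also a partner of Itgav (chromosome 8, 128685654 to 128733579), belongs to neither ligand class. Its level was 241 and 527 CPM in siCtr 0 d, 1570.4 and 1562 CPM in siCtr TGFbeta, 871, 694 and 918 CPM in siIrf1 0 d, and 2103 (replicate 1), 1045 (replicate 2) and 2145 CPM (replicate 3) in siIrf1 TGFbeta. All libraries with TGFbeta were above all those without it. Itgb1 rose by 2.03 ± 0.41 in siCtr cells (4.08-fold, adjusted p = 0.00395), by 1.61 without siCtr 0 d replicate 1 and by 2.82 without replicate 3, called each time. The rise in siIrf1 cells was 1.09 ± 0.32 (adjusted p = 0.0362), a call lost in 8 of 19 alternatives. These included the fits without siIrf1 0 d replicate 1 (1.13), 2 (0.98) or 3 (1.17), without siIrf1 TGFbeta replicate 1 (0.95) or 3 (0.93), and without either siCtr TGFbeta library (1.09 each).

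**Figure D2:**
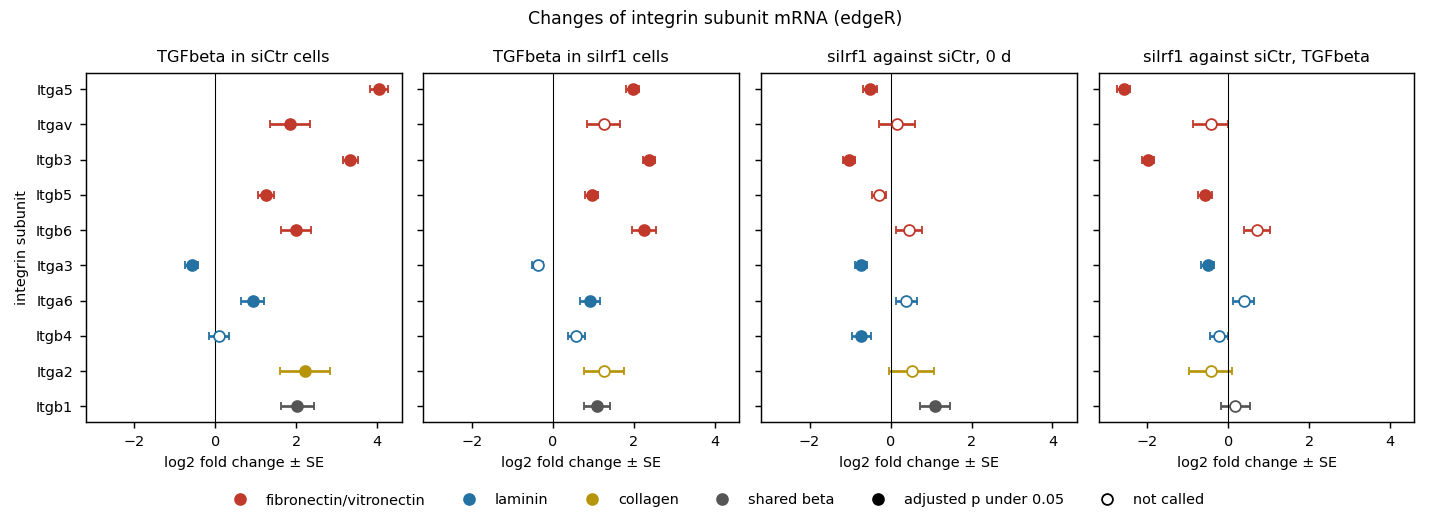
Log2 fold change ± SE (edgeR, x axis) of each subunit in the 4 comparisons of groups, coloured by ligand class, with filled points for an adjusted p under 0.05. The fibronectin and vitronectin receptor subunits lie to the right of 0 with TGFbeta in both siRNAs, and Itga5 and Itgb3 lie farthest to the left in siIrf1 against siCtr cells with TGFbeta (-2.59 and -1.98).

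The effect of the Irf1 siRNA was read without and with TGFbeta. Without it, 4 of the 10 subunits fell with siIrf1 and 1 rose, where 31.8% of all genes tested passed (16.3% higher, 15.5% lower). The median over the 10 was -0.07 against -0.03 over all genes. Of the fibronectin and vitronectin receptor subunits 2 of 5 fell (median -0.29), and of the laminin receptor subunits 2 of 3 (median -0.72). Itgb3 fell by 1.02 ± 0.15 on the log2 scale (adjusted p = 0.00149) and Itga3 fell by 0.72 ± 0.15 (adjusted p = 0.00682). Both calls held in all 19 alternatives. Itgb4 (-0.72 ± 0.23, adjusted p = 0.0366), Itga5 (-0.52 ± 0.17, adjusted p = 0.0448) and Itgb1 (1.11 ± 0.37, adjusted p = 0.0449) also passed, but these calls were lost in 9, 13 and 9 of the 19 alternatives. Leaving out siCtr 0 d replicate 1 ended all 3 calls (-0.83, -0.59 and 0.64), as did leaving out siIrf1 0 d replicate 1 (-0.60, -0.43 and 1.07) or 3 (-0.59, -0.46 and 1.03), either siCtr TGFbeta library (-0.70, -0.49 and 1.12 each) or siIrf1 TGFbeta replicate 1 (-0.72, -0.52 and 1.11). Without siCtr 0 d replicate 3 the calls of Itgb4 (-0.55) and Itga5 (-0.39) were lost, and that of Itgb1 without siIrf1 0 d replicate 2 (1.22) or siIrf1 TGFbeta replicate 3 (1.11).

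Sequence composition moved with the siRNA effect at 0 d. The 4 subunits with a GC content of 43.5 to 44.8% (Itgav, Itga2, Itgb6 and Itgb1) had positive changes, and those of 57.0 to 60.0% (Itgb5, Itga5, Itga3 and Itgb4) negative ones. With the GC and length trend of each library removed, Itgav turned from 0.15 to -0.85 and was called, Itgb6 from 0.46 to -0.39, Itga2 from 0.53 to -0.19 and Itgb5 from -0.29 to 0.17, the last 3 not called. Itga5 shrank to -0.16 and was not called, Itgb1 to 0.53 and Itga3 to -0.41, both called. Itgb3, at 52.1% GC, stayed at -0.92 and called. The GC index of the libraries differed between the siRNA groups, so that at 0 d composition and siRNA cannot be told apart for the subunits at either end.

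**Figure D3:**
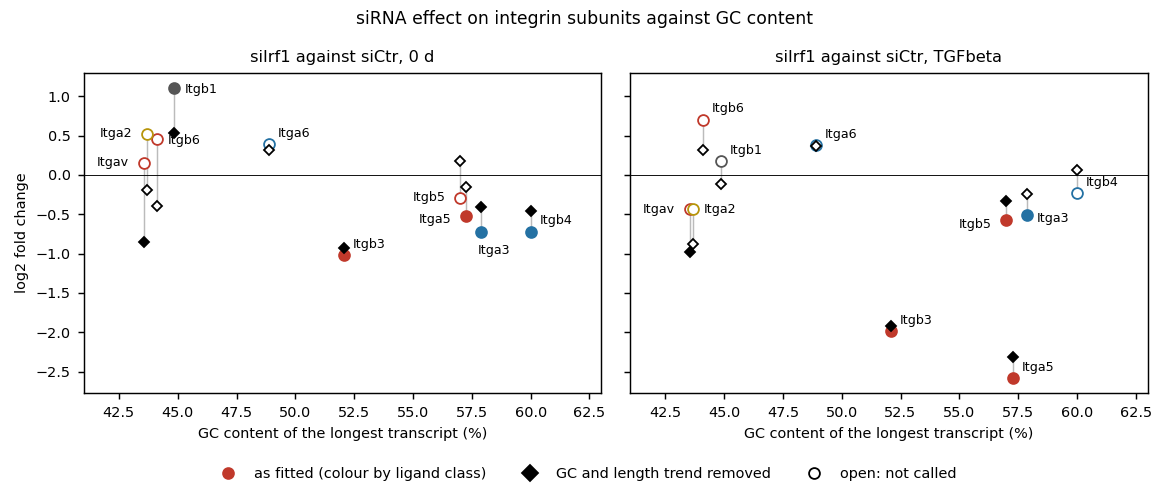
Log2 fold change of siIrf1 against siCtr (y axis) for each subunit by the GC content of its longest transcript (x axis, percent), at 0 d and with TGFbeta. Circles are as fitted and coloured by ligand class, black diamonds have the GC and length trend removed, and open symbols were not called. At 0 d the diamonds of Itgav, Itga2, Itgb6 and Itgb5 lie across 0 from their circles, while with TGFbeta Itga5 (-2.59 to -2.31) and Itgb3 (-1.98 to -1.92) move little.

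With TGFbeta present, 4 of the 10 subunits were lower in siIrf1 than in siCtr cells and none higher, where 18.0% of genes tested passed (9.72% higher, 8.28% lower). Itga5 fell by 2.59 ± 0.17 (6.01-fold lower, adjusted p = 2.86e-05) and Itgb3 fell by 1.98 ± 0.15 (3.95-fold lower, adjusted p = 5.39e-05). The groups of both genes did not overlap, and both calls held in all 19 alternatives, Itga5 between -2.70 and -2.31 and Itgb3 between -2.20 and -1.84. Among 13135 genes Itga5 ranked number 130 and Itgb3 number 226 from the lowest change. Itgb5 (-0.58 ± 0.18, adjusted p = 0.0491) and Itga3 (-0.51 ± 0.15, adjusted p = 0.0427) passed narrowly, with the calls lost in 7 and 10 of 19 alternatives. Both were lost without siCtr TGFbeta replicate 2 (-0.60 and -0.55) or 3 (-0.65 and -0.57), siIrf1 TGFbeta replicate 1 (-0.58 and -0.47) or 3 (-0.45 and -0.49), and siIrf1 0 d replicate 1 or 3 (-0.58 and -0.51 each). For Itga3 they also included the removal of the GC and length trend, which left -0.25.

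The remaining 6 subunits did not pass in that comparison. Itgb6 was 0.70 ± 0.32 higher in siIrf1 cells (adjusted p = 0.171), and 0.97 and called without siIrf1 TGFbeta replicate 2, though 0.32 and not called with the GC and length trend removed. Itgav was at -0.44 ± 0.44 (adjusted p = 0.561). It was called at -0.97 once the trend was removed, but stood at -0.08 without siIrf1 TGFbeta replicate 2. Itgb1 changed by 0.17 ± 0.36 (adjusted p = 0.796), Itga6 by 0.38 ± 0.27, Itgb4 by -0.23 ± 0.23 and Itga2 by -0.43 ± 0.54. For the class of laminin receptors the median was -0.23, for that of fibronectin and vitronectin receptors -0.58, and over all genes 0.05.

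Whether the TGFbeta effect itself differed between the siRNAs was tested as the interaction, the TGFbeta effect in siIrf1 cells minus that in siCtr cells. Of the 10 subunits 2 passed, both with a smaller rise in siIrf1 cells, where 4.12% of genes tested passed (2.80% higher, 1.32% lower). They were Itga5, at -2.07 ± 0.25 (adjusted p = 0.00188), and Itgb3, at -0.96 ± 0.22 (adjusted p = 0.0371). Without siCtr 0 d replicate 3 the balance over all genes turned, from 368 higher and 173 lower calls to 396 higher and 1194 lower. Expressed as folds, the rise of Itga5 was 16.5-fold with siCtr and 3.93-fold with siIrf1, and that of Itgb3 10.1-fold and 5.19-fold. The Itga5 interaction passed in all 18 alternatives (-2.26 to -1.92), and the Itgb3 interaction in 10 of 18 (-1.21 to -0.85). The latter was lost without siCtr 0 d replicate 1 (-1.14), without any 1 of the 3 siIrf1 0 d libraries (-0.93, -0.98 and -0.98), without either siCtr TGFbeta library (-1.21 for replicate 2, -0.85 for replicate 3), and without replicate 1 (-0.94) or replicate 2 (-0.95) of siIrf1 TGFbeta.

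For the other 8 subunits the interaction did not pass, which does not show that their responses were equal. The estimates were -0.59 ± 0.63 for Itgav, -0.29 ± 0.25 for Itgb5, 0.24 ± 0.45 for Itgb6, 0.21 ± 0.22 for Itga3, -0.01 ± 0.37 for Itga6, 0.49 ± 0.33 for Itgb4, -0.96 ± 0.77 for Itga2 and -0.94 ± 0.50 for Itgb1. The interactions of Itga2 and Itgb1 hung on the siCtr 0 d libraries. Without siCtr 0 d replicate 3 they were -2.52 and -1.73, both called, and without replicate 1 they were -0.31 and -0.53, neither called. With the GC and length trend removed Itgb5 was called, at -0.50, while Itgav stood at -0.13 and Itgb6 at 0.71, neither called. The 5 comparisons share their groups of libraries, so that agreement between them is not independent.

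**Figure D4:**
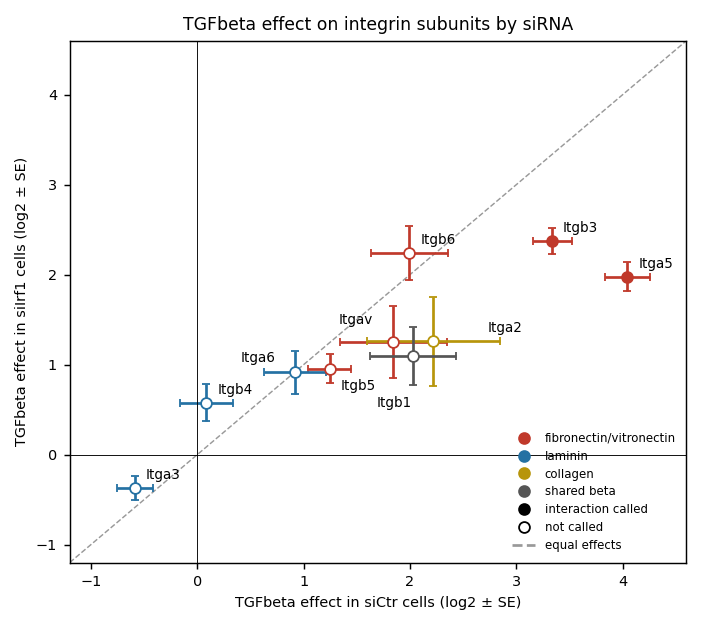
TGFbeta effect on each subunit in siCtr cells (x axis) against that in siIrf1 cells (y axis), as log2 fold change ± SE, coloured by ligand class; the dashed line marks equal effects and filled points a called interaction. Itga5 (4.05 and 1.98) and Itgb3 (3.34 and 2.38) are the filled points and lie below the line.

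Per kilobase, the laminin receptor chain Itga3 was the most abundant of the 10 mRNAs in siCtr 0 d, at 229.6 ± 14.3 RPKM (SD, n = 2). It was followed by Itgb1 (91.6 ± 48.1 RPKM) and Itgb5 (59.5 ± 1.75 RPKM), whose ranges met, and by Itgb4 (34.0 ± 3.29 RPKM). Itga6, Itgb3, Itgav, Itga2 and Itga5 followed between 9.20 and 3.52 RPKM, each with a range that met that of its neighbour above except for Itga6, and Itgb6 came last at 2.36 ± 0.763 RPKM.

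In the other 3 groups Itgb1 was first, with 197 ± 28.1 RPKM in siIrf1 0 d (n = 3), 373 ± 1.35 RPKM in siCtr TGFbeta (n = 2) and 421 ± 149 RPKM in siIrf1 TGFbeta (n = 3). Itga3 and Itgb5 came next in that order in each, with ranges that met in siIrf1 TGFbeta. Itga5 moved from place 9 in siCtr 0 d to place 5 in siCtr TGFbeta, at 58.2 ± 3.18 RPKM, above both Itgb4 (36.1 ± 5.65 RPKM) and Itga6 (17.4 ± 1.53 RPKM). In siIrf1 TGFbeta it was last, at 9.69 ± 0.798 RPKM, in a run from Itgb3 (23.5 ± 0.988 RPKM) to Itga5 in which each range met the next. Itgb3 took place 4 in siCtr TGFbeta, at 92.6 ± 15.8 RPKM, and place 5 in siIrf1 TGFbeta.

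The balance of the ligand classes was described with ratios of RPKM within a library. For every 100 RPKM of the laminin receptor alpha chains Itga3 and Itga6 there were 3.65 and 5.48 RPKM of Itga5 and Itgav in siCtr 0 d. The value was 50.9 and 49.1 in siCtr TGFbeta, 7.15, 6.06 and 8.58 in siIrf1 0 d, and 26.2, 13.4 and 28.8 in siIrf1 TGFbeta. The order of the groups was siCtr 0 d, siIrf1 0 d, siIrf1 TGFbeta and siCtr TGFbeta, with no overlap. Itgav has a GC content of 43.5% and Itga3 one of 57.9%, so that the order of the 2 siRNA groups at 0 d cannot be told apart from composition. With TGFbeta the GC index differed too, at -0.46 in both siCtr libraries and 0.66, -0.39 and 0.77 in siIrf1 replicates 1, 2 and 3. Its part in the ratio there was not tested. Itga5 and Itgav together made up 3.49 and 5.05% of the RPKM of the 5 alpha chains in siCtr 0 d and 30.9 and 30.5% in siCtr TGFbeta. In siIrf1 cells this share was 5.54 to 7.48% at 0 d and 18.6, 11.2 and 19.8% with TGFbeta.

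Itga5 was also set against Itga3 alone. Per 100 RPKM of Itga3 it read 1.54 and 1.53 RPKM at siCtr 0 d, with siIrf1 0 d close by at 1.62, 1.82 and 1.87. With TGFbeta it read 36.2 and 40.0 in siCtr and 10.4, 7.76 and 9.08 in siIrf1. Itga5 per Itgav stood at 0.693 and 0.363 in siCtr 0 d, then 1.75 and 2.79 with TGFbeta, so that Itga5 exceeded Itgav in siCtr cells only with TGFbeta. In siIrf1 TGFbeta the same ratio was 0.469, 1.03 and 0.336, with replicate 2 the highest.

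Beta chains moved the same way with TGFbeta but over a smaller range. The summed RPKM of Itgb3, Itgb5 and Itgb6 over that of Itgb4 was 2.29 and 1.91 for siCtr 0 d, then 5.89 and 7.81 with TGFbeta. In siIrf1 cells it was 3.03, 2.28 and 3.22 at 0 d, which overlapped siCtr 0 d, and 4.82, 4.50 and 3.75 with TGFbeta. Itgb3 over Itgb5 was 0.0778 to 0.165 in the 5 libraries at 0 d, 0.566 and 0.751 in siCtr TGFbeta, with siIrf1 TGFbeta between at 0.239, 0.206 and 0.319. Itgb1 over the sum of the 5 alpha chains was 0.244 and 0.460 in siCtr 0 d, 1.31 and 1.38 in siCtr TGFbeta, 1.29, 0.869 and 1.42 in siIrf1 0 d, and 2.81, 1.57 and 2.68 in siIrf1 TGFbeta. Itgb1 has a GC content of 44.8% and Itga3 one of 57.9%, and the part of the GC index in this last ratio and in the others was not tested. No test was made of these ratios.

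**Figure D5:**
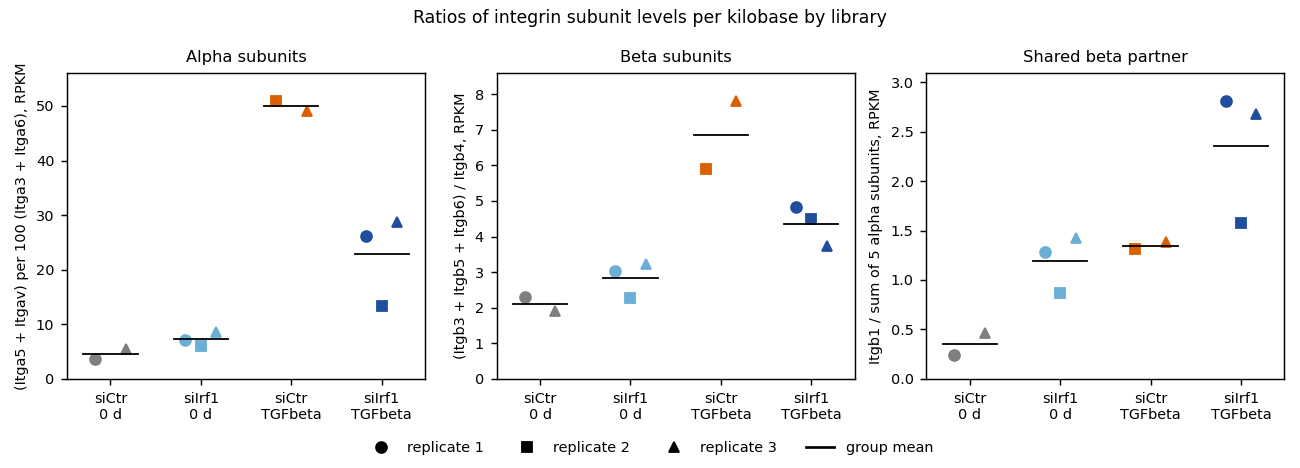
Ratios of RPKM in each library by group: Itga5 and Itgav per 100 of Itga3 and Itga6 (left), Itgb3, Itgb5 and Itgb6 over Itgb4 (middle) and Itgb1 over the 5 alpha chains (right), with bars at the group means and all axes from 0. The left ratio is 49.1 and 50.9 in siCtr TGFbeta and 13.4 to 28.8 in siIrf1 TGFbeta, against 3.65 to 8.58 at 0 d.

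Across the 10 libraries the log2 CPM of Itga5 ran close to that of Itgb3 (Pearson r = 0.98) and Itgb5 (0.95), less so to that of Itgav (0.78) and Itgb1 (0.60), and not to that of Itga3 (-0.16). Itga6 ran with Itgb1 (0.96) and Itgb6 (0.96), and Itgav with Itga2 (0.96). These are descriptions over 4 groups of libraries, in which GC content is shared: Itgav, Itga2, Itgb6 and Itgb1 are the 4 of lowest GC content.

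The ligands and partners of the receptors were counted from lists. The first held 14 genes for ligands of integrins that bind RGD, whether or not the ligand itself carries that motif. Of these 11 were tested, and 9 rose with TGFbeta in siCtr cells, none falling, where 16.1% of all genes rose and 16.3% fell. In siIrf1 cells 8 rose and 1, Tgfb3, fell (11.6% and 9.71% of all genes). With TGFbeta 6 of the 11 were lower in siIrf1 than in siCtr cells (8.28% of all genes), and 3 passed the interaction (Tnc, Ccn1 and Tgfb3), each with a negative value (1.32%). Tnc, the tenascin C gene, rose by 4.55 ± 0.28 in siCtr cells (adjusted p = 4.25e-06) and by 1.97 ± 0.21 in siIrf1 cells (adjusted p = 9.08e-05), an interaction of -2.59 ± 0.32 (adjusted p = 0.00242).

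Fn1, the fibronectin gene, read 289.6 and 270.0 CPM in siCtr 0 d, 9131 and 9615 CPM in siCtr TGFbeta, 206, 359.7 and 186 CPM in siIrf1 0 d, and 1337, 589 and 2412 CPM in siIrf1 TGFbeta. The siIrf1 TGFbeta libraries were above all libraries at 0 d and below both of siCtr TGFbeta. Its rise was 5.07 ± 0.62 in siCtr cells (adjusted p = 1.98e-04) and 2.53 ± 0.45 in siIrf1 cells (adjusted p = 0.00263), and the difference of siIrf1 from siCtr under TGFbeta was -2.70 ± 0.48 (adjusted p = 0.00459). The interaction of -2.54 ± 0.68 did not pass (adjusted p = 0.0752). Ccn1 and Ccn2, matrix-associated growth regulators that bind integrins, rose by 2.76 ± 0.22 and 2.56 ± 0.19 in siCtr cells, and Ccn1 passed the interaction (-1.68 ± 0.27, adjusted p = 0.00769). Vtn, the vitronectin gene, did not pass the filter on low counts.

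Laminin chains went in both directions. Of 11 genes 8 were tested. With TGFbeta 4 rose and 3 fell in siCtr cells (16.1% and 16.3% of all genes), and 3 rose and 1 fell in siIrf1 cells (11.6% and 9.71%). With siIrf1 5 fell at 0 d (15.5% of all genes) and 4 under TGFbeta (8.28%), none rising. Lamb3, a laminin beta chain of epithelial basement membrane, rose in siCtr cells (1.29 ± 0.21, adjusted p = 0.00107). Lama3, a laminin alpha chain, rose (1.95 ± 0.61, adjusted p = 0.0326), to only 0.733 and 0.763 CPM in siCtr TGFbeta. Lamc1 was the laminin chain with the smallest adjusted p for siIrf1 at 0 d (-1.90 ± 0.19, adjusted p = 3.02e-04). Lamc3 alone passed the interaction, at -1.43 ± 0.32 (adjusted p = 0.0379).

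Partners of Itgb4 in hemidesmosomes made up a list of 4 genes. All 4 genes were tested, and with TGFbeta, where 16.1% and 11.6% of all genes rose, 1 rose in siCtr cells (Col17a1, from at most 0.157 to 0.933 and 1.23 CPM) and 1 in siIrf1 cells (Cd151, a tetraspanin that associates with Itga3 and Itga6; 0.45 ± 0.14, adjusted p = 0.0459). With siIrf1 2 of the 4 fell at 0 d (15.5% of all genes) and 2 with TGFbeta (8.28%), none rising. Cd151 fell by 0.70 ± 0.15 at 0 d (adjusted p = 0.00853) and by 0.69 ± 0.15 with TGFbeta (adjusted p = 0.0121), and Col17a1 fell with TGFbeta. Plec, which links Itgb4 to keratin, fell at 0 d (-1.14 ± 0.30, adjusted p = 0.0177). Of 9 collagen genes 6 were tested, of which 5 rose in siCtr and 6 in siIrf1 cells with TGFbeta (16.1% and 11.6% of all genes). Col1a1 rose by 5.31 ± 0.41 and 5.39 ± 0.34, and no collagen gene passed the interaction.

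Of 30 genes for integrin activators and for adaptors that couple integrins to actin 29 were tested. With TGFbeta 15 rose and 1 fell in siCtr cells (16.1% and 16.3% of all genes), and 11 rose and none fell in siIrf1 cells (11.6% and 9.71%). Actn1, an actin crosslinker of focal adhesions, rose by 2.22 ± 0.18 (adjusted p = 1.45e-05) and 1.72 ± 0.15 (adjusted p = 2.56e-05). With siIrf1 5 rose and 9 fell at 0 d (16.3% and 15.5% of all genes), and 5 fell with TGFbeta (8.28%). Rsu1, a partner of the Ilk, Lims and Parv complex, was the single gene of this list that passed the interaction (-1.50 ± 0.26, adjusted p = 0.0116). It read 23.1 and 33.0 CPM in siCtr 0 d and 62.4 to 73.7 CPM in siIrf1 0 d, and 102 to 139 CPM in all libraries with TGFbeta. The kinase gene Ptk2b rose by 1.48 ± 0.18 and 0.78 ± 0.14 with TGFbeta, and fell by 0.86 ± 0.16 with siIrf1 under TGFbeta (adjusted p = 0.00481).

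The other integrin genes were rare in these cells. Of 17 genes 8 were tested, with 2 rising and 2 falling in siCtr cells with TGFbeta (16.1% and 16.3% of all genes) and 1 rising in siIrf1 cells (11.6%). Itgb2, the beta chain of leukocyte integrins, rose from 0.424 and 0.550 to 3.56 and 4.32 CPM in siCtr cells (3.02 ± 0.36, adjusted p = 1.61e-04). Itgb7 read 6.91 and 5.94 CPM in siCtr 0 d and 0.396 to 0.659 CPM in siIrf1 0 d, a log2 change of -3.64 ± 0.36 (adjusted p = 3.02e-04). Itga1, the alpha chain of another collagen receptor, was higher with siIrf1 at 0 d (1.70 ± 0.55, adjusted p = 0.0410) and with TGFbeta (2.58 ± 0.58, adjusted p = 0.0139). Itga11, an alpha chain of a collagen receptor, passed the interaction on at most 33 counts a library.

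The genes whose log2 CPM ran closest to that of a subunit over the 10 libraries were sought among the 10075 genes whose mean reached 5 CPM. For Itga5 they were Tnc (Pearson r = 0.994), Tbc1d1 (0.992), Pcolce2 (0.990), Adarb1 (0.988) and Ptk2b (0.988). For Itgb3 they included Rnf19b (0.993), Msn, Lrrc8c and Tbc1d1 (each 0.991). Tbc1d1 was on both lists, whose subunits correlate with each other. Itgb4 was closest to Pitpnm2 (0.980), Foxp4 (0.974), Bcl9l (0.972), Gse1 (0.966) and Celsr2 (0.965), and Itgb6 to Ghr (0.976), Cadm1 (0.975), Pitpnc1 (0.974), Eogt (0.972) and Ror1 (0.968).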

How the data were processed

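RNA sequencing of 10 libraries was made from total RNA with a stranded Illumina kit, per the labels' protocols. The deposited table holds read counts per Entrez gene, and a gene length in bases that the authors gave beside the counts; the unit of both is read from the file header and the values. Reads were aligned with STAR to mm10 (GRCm38), per the submitters' processing notes. For the counting tool, its strand setting and the annotation, none is given in the sources used here.

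Symbols and coordinates came from RefSeq GRCm38.p6 for 24374 genes and GENCODE M21 for 7; 73 had none (0.211 to 1.50% of a library's counts). Groups follow the siRNA and time in the labels. Counts were tested with edgeR 4.0.16 in R 4.3.3 (TMM, filterByExpr, robust quasi-likelihood F test) with all 10 libraries in a single model of 4 groups, which leaves 6 residual degrees of freedom (common BCV 0.225). Benjamini-Hochberg adjustment ran over 13135 genes with a threshold of 0.05, and SE is the log2 fold change over the square root of F. The fit was tested on simulated data. The simulated counts held no GC trend and no effect of the replicate number, so that the test does not cover these. RPKM was computed from CPM and the deposited gene length.

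Each comparison was repeated with RLE size factors, no filter, a filter at 2 CPM in 3 or more libraries, DESeq2 1.42.0, the compared groups alone (not for the interaction), the replicate number as a block, each library's trend with GC content (known for 95.0% of genes tested) and length removed (splines, 5 degrees of freedom), both of these, each library left out, and siCtr 0 d replicate 1 with siIrf1 TGFbeta replicate 2 left out. Same-numbered siIrf1 libraries deviated together (correlations 0.136, 0.448 and 0.302) and are taken as pairs there, from the data. A code in the sample titles runs with the replicate number in all 4 groups, and what it marks is not stated. Other pairs of groups gave -0.393 to 0.342 and were not taken as pairs. Among them siCtr 0 d with siIrf1 0 d (0.124 and 0.333) and siIrf1 0 d with siCtr TGFbeta (0.221 and 0.105) were positive too. The main fit held no term for the replicate number in any comparison. Replicates of a group differed by more than counting error allows (24.3 to 305 in chi-square per degree of freedom), so none was counted as a copy.

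Named are all 10 subunits, Irf1, in each list and comparison the called genes of smallest adjusted p (3 at most), Fn1, Vtn, Lama3, Lamb3 and Cd151, and the 5 genes most like Itga5, Itgb3, Itgb4 and Itgb6; not every gene the rule gives is reported here. The subunits, the lists and the alternatives were chosen with earlier results of these data known.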

Additional observations from a re-analysis of the deposited data

Results flagged for a closer look

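The TGFbeta effect differed between the siRNAs for 2 subunits by a test of the difference itself. For Itga5 the effect in siIrf1 cells minus that in siCtr cells was -2.07 ± 0.25 on the log2 scale (edgeR adjusted p = 0.00188), with all 3 siIrf1 TGFbeta libraries (40.3 to 47.3 CPM) below both siCtr TGFbeta libraries (250.2 and 270.3 CPM). For Itgb3 the difference was -0.96 ± 0.22 (adjusted p = 0.0371), with 132 to 142 CPM against 470.9 and 599.9 CPM. The Itgb3 interaction was called in only 10 of 18 alternatives. As fitted, levels at 0 d also differed for both genes, Itgb3 at 25.4 to 27.3 CPM in siIrf1 and 48.0 and 57.9 CPM in siCtr. Itga5 stood at 9.61 to 13.2 CPM in siIrf1 0 d and 15.1 and 16.4 CPM in siCtr 0 d, a call held in 6 of 19 alternatives. It was lost with the GC and length trend removed, and for Itga5 at 0 d composition and siRNA cannot be told apart. Single libraries were not tested as outliers, since each group holds only 2 or 3.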

How the results depend on the processing

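Over the 10 subunits, the 5 comparisons and their alternatives, 792 values kept both direction and side of the threshold, 88 lost a call, 31 gained a call and 29 changed sign; the cause was not tested. With 1 library left out, the number of subunits called ranged from 5 to 9 for TGFbeta in siCtr cells, 4 to 8 in siIrf1 cells, 2 to 5 for siIrf1 without and 2 to 5 with TGFbeta, and 1 to 4 for the interaction. The genes called ranged from 2297 to 5159, 1957 to 3300, 1700 to 5192, 762 to 2978 and 122 to 1590 in the same order, against 4267, 2799, 4175, 2365 and 541 with all libraries. For siIrf1 without TGFbeta 3 subunits were called with no filter on low counts (3631 genes in all) and 3 with the compared groups alone (3712 genes). For siIrf1 with TGFbeta 2 subunits were called with the compared groups alone (1581 genes). With the GC and length trend removed 4375 genes were called for TGFbeta in siIrf1 cells (1912 higher, 2463 lower, against 1523 and 1276 as fitted), 3597 for siIrf1 with TGFbeta and 1252 for the interaction. The replicate block together with that removal called 4353 for TGFbeta in siIrf1 cells and 937 for the interaction. DESeq2 called 1166 for the interaction. Without both siCtr 0 d replicate 1 and siIrf1 TGFbeta replicate 2, 4873 genes were called for TGFbeta in siIrf1 cells and 4897 for siIrf1 with TGFbeta.

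Values that changed sign are log2 fold changes. Under the GC and length trend removal, and then with the replicate block added, Itgb4 was -0.41 and -0.45 for TGFbeta in siCtr cells (-0.16 with the replicate block alone). In the same order, for siIrf1 without TGFbeta, Itgav was -0.85 and -0.80, Itgb5 0.17 and 0.17, Itgb6 -0.39 and -0.38, and Itga2 -0.19 and -0.047. For siIrf1 with TGFbeta Itgb4 was 0.066 and 0.087 and Itgb1 -0.12 and -0.15, and for the interaction Itga6 was 0.056 and 0.037. Without siCtr 0 d replicate 1 Itgav (-0.29) and Itga2 (-0.18) changed sign for siIrf1 without TGFbeta and Itga6 (0.31) for the interaction. Leaving out siIrf1 TGFbeta replicate 2 as well gave -0.29, -0.18 and 0.49 for these, and interactions of 0.15 for Itgav and 0.014 for Itga2. The Itga6 interaction, -0.01 as fitted, was 0.0012 without siIrf1 0 d replicate 3, 0.0088 without siCtr TGFbeta replicate 2 and 0.18 without siIrf1 TGFbeta replicate 2. The Itgb6 interaction ranged from -0.26 (without siCtr 0 d replicate 3) to 0.52, and that of Itga6 from -0.61 to 0.31, with 1 library left out. In the same way, for siIrf1 without TGFbeta, Itgav ranged from -0.29 to 0.84 and Itga2 from -0.18 to 2.03.

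Between siIrf1 0 d and siIrf1 TGFbeta, where the numbers were taken as pairs, the replicate block changed the call of Itgb4 (0.62, called) and of no other subunit. In the comparisons whose numbers were not taken as pairs, the replicate block ended the calls of Itga6 for TGFbeta in siCtr cells (0.98), of Itga5 for siIrf1 without TGFbeta (-0.54) and of Itga3 for siIrf1 with TGFbeta (-0.47). Every subunit had at least 188 counts in each library; the limits set by depth and by groups of 2 and 3 libraries were not compared.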
